A study of Homo sapiens with 4 samples.

Results

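DNA methylation in human cells is kept by a machinery that copies the mark after replication, written anew by other methyltransferases and taken off through oxidation. UHRF1 recognises hemimethylated CpG sites on newly replicated DNA and recruits DNMT1, the maintenance methyltransferase, while the chromatin remodeller HELLS and its zinc finger partner CDCA7 give the enzymes access to DNA packed in nucleosomes. DNMT3A and DNMT3B methylate unmarked sites, and the dioxygenases TET1, TET2 and TET3 oxidise methylated cytosine as the first step of its removal. The 10 genes described here are these 9 and CDCA7L, a MYC-binding paralogue of CDCA7. They were followed through every probe set whose platform annotation gave 1 of these symbols alone, which gave 22 of 54613 probe sets and 10 of 19775 genes. The set was drawn up with the long against short difference of UHRF1 already known, and in part selected on that difference, so values of that contrast are given as descriptions without a test.

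RNA came from 4 derivatives of PC-3, an established line from a human prostate cancer metastasis, each hybridised to 1 oligonucleotide array. LhTERTL cells overexpressed hTERT (gene TERT, the catalytic subunit of telomerase) and had long telomeres, and LhTERTL/cre+ cells had long telomeres with basal hTERT. The control lines mock and mock/cre+ had short telomeres and basal hTERT. Both cre+ lines carry the name of Cre, a recombinase that cuts out marked DNA, and the labels name no further treatment. The labels do not say whether a line was a single clone, and each line had 1 array, so the 2 arrays of a telomere group are different lines and any p-value measures only the spread between them. Precision is limited by this number of arrays; with 2 arrays on each side the smallest two-sided p of an exact permutation test is 0.333.

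Each probe set's row in the deposited log2 table had a median of 0 across the arrays, so 0 stands for that median, differences between arrays can be read, and no expression level or presence of a cell type marker can. A TERT probe set stood at 3.54 in LhTERTL, -0.16 in LhTERTL/cre+, 0.12 in mock and -0.12 in mock/cre+, and another at -0.66, 0.10, 0.06 and -0.06 on the same arrays, so 1 of its 2 probe sets was high in the array labelled as overexpressing hTERT. Of the 10 epithelial and prostate markers 8 were measured, with list means between -0.09 and 0.07 on the 4 arrays, and of the 10 leukocyte, endothelial and fibroblast markers 8 were measured, with list means between -0.06 and 0.04. Single markers differed by more than these means. The epithelial cadherin CDH1 stood at 0.95 in LhTERTL and -0.74 in LhTERTL/cre+, against 0.00 in mock and 0.03 in mock/cre+, and the epithelial adhesion molecule EPCAM at 0.47 in LhTERTL and -0.68 in LhTERTL/cre+, against -0.04 in mock and 0.04 in mock/cre+. The prostate homeobox gene HOXB13 stood at -0.54 in LhTERTL and 0.26 in LhTERTL/cre+, against -0.26 in mock and 0.74 in mock/cre+. The endothelial marker PECAM1 stood at -0.48 in LhTERTL and 0.15 in LhTERTL/cre+, against -0.15 in mock and 0.45 in mock/cre+. As gene means HOXB13 and PECAM1 thus have the array order given below for UHRF1, and the part of such shifts in the values of the methylation genes was not tested. The 5 probe sets of PECAM1 disagreed, at -0.633 to 0.115 (long minus short) and 0.036 to 1.019 (Cre minus no Cre). The fibroblast genes COL1A1 and PDGFRB spanned 0.53 and 0.22 over the arrays.

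The genes of replication-coupled maintenance spread over up to 3.80 log2 units between arrays in a single probe set, and 4 of the 5 stood in a common order. UHRF1, read by 1 probe set, stood at -1.53 in LhTERTL and 0.37 in LhTERTL/cre+, against -0.37 in mock and 1.46 in mock/cre+. It was therefore lowest in the hTERT-overexpressing line and highest in mock/cre+, and the long-telomere and short-telomere arrays overlapped. Matched by Cre status, the log2 difference of UHRF1 was -1.16 for LhTERTL minus mock and -1.10 for LhTERTL/cre+ minus mock/cre+. The long minus short difference was -1.13 ± 0.91 (limma standard error, n = 2 per group). This fit ignores the matching by Cre. Its error, here and for HELLS and CDCA7 below, includes the difference between Cre and no Cre within each telomere group. The long minus short difference was -0.18 without the LhTERTL array, -0.21 without mock/cre+, -2.04 without mock and -2.08 without LhTERTL/cre+. Leaving out an array leaves the telomere groups unmatched for Cre status. The difference between Cre and no Cre thus enters these values, here and for HELLS and CDCA7 below. These UHRF1 differences are among the values with which the 10 genes were chosen.

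HELLS was read by 5 probe sets whose mean stood at -1.29 in LhTERTL and 0.35 in LhTERTL/cre+, against -0.28 in mock and 0.77 in mock/cre+. The order of the arrays was that of UHRF1 in 4 of the 5 probe sets. The fifth, 234040_at, was highest in LhTERTL/cre+ at 0.58, with LhTERTL at -0.52, mock at -0.20 and mock/cre+ at 0.20. In the pair without Cre the HELLS probe sets ran from -1.35 to -0.32 (LhTERTL minus mock), and in the pair with Cre from -0.96 to 0.39 (LhTERTL/cre+ minus mock/cre+). The gene mean was thus lower in both pairs, at -1.01 and -0.42, and 1 of its probe sets went the other way in the pair with Cre. The long minus short difference of HELLS was -0.72 ± 0.68 (limma standard error, n = 2 per group), and it was 0.11 without the LhTERTL array, -0.19 without mock/cre+, -1.24 without mock and -1.54 without LhTERTL/cre+.

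CDCA7 had 2 probe sets that disagreed on LhTERTL. The first, 224428_s_at, stood at -2.13 in LhTERTL and 0.40 in LhTERTL/cre+, against -0.40 in mock and 1.67 in mock/cre+, the widest spread of the 22. The second, 230060_at, stood at -0.02 in LhTERTL and 0.02 in LhTERTL/cre+, against -0.23 in mock and 1.41 in mock/cre+. Both placed mock/cre+ far above the other arrays, and only the first placed LhTERTL far below them. As a gene mean CDCA7 had differences of -0.76 (LhTERTL minus mock) and -1.33 (LhTERTL/cre+ minus mock/cre+), and its long minus short difference was -1.04 ± 0.79 (limma standard error, n = 2 per group). That difference was -0.40 without the LhTERTL array, -0.11 without mock/cre+, -1.97 without mock and -1.69 without LhTERTL/cre+.

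DNMT1, with 1 probe set, followed the same order over a narrower range, at -0.78 in LhTERTL and 0.12 in LhTERTL/cre+, against -0.12 in mock and 0.33 in mock/cre+. Its pair differences were -0.66 without Cre and -0.21 with Cre. CDCA7L departed from its paralogue, at -0.80 in LhTERTL and 0.11 in LhTERTL/cre+, against -0.00 in mock and 0.00 in mock/cre+. Only the LhTERTL array stood apart for CDCA7L, and the short-telomere arrays differed by 0.00.

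**Figure D1:**
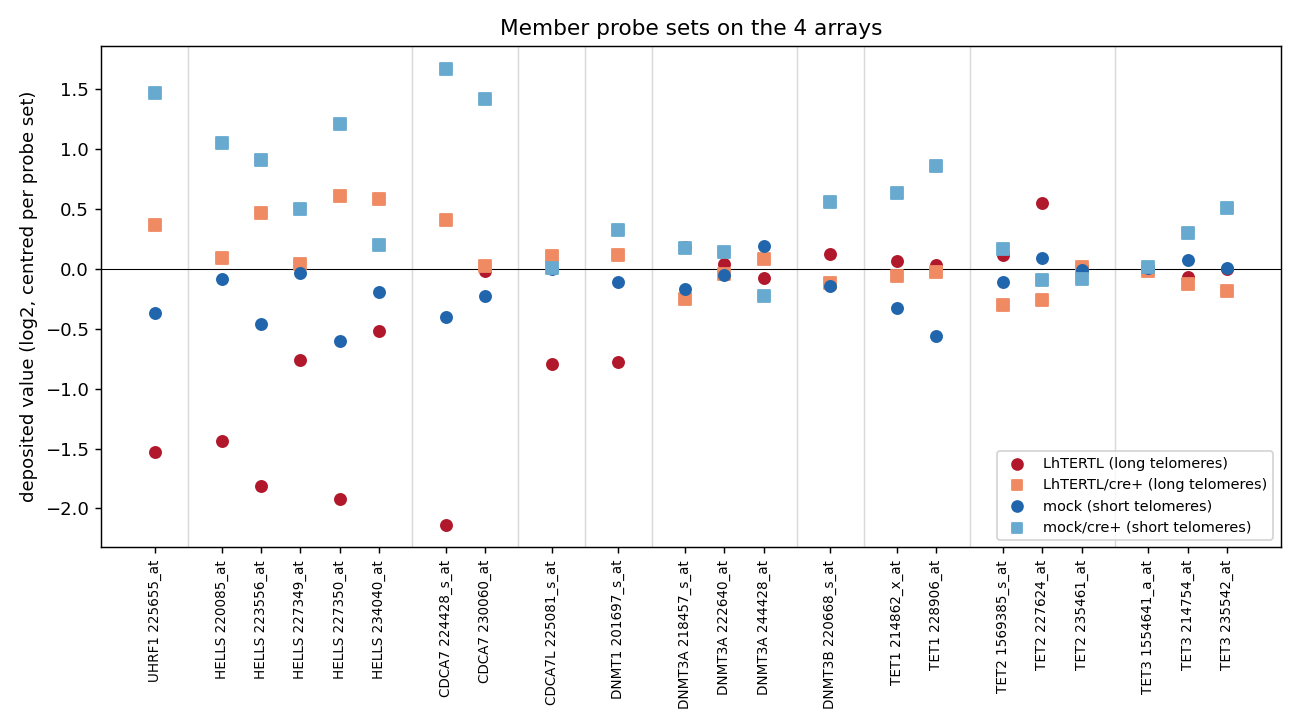
Deposited log2 values, centred per probe set, of the 22 probe sets of the 10 genes, with 1 point per array (circles without Cre, squares with Cre; red shades long telomeres, blue shades short telomeres). LhTERTL is lowest and mock/cre+ highest for UHRF1, DNMT1, 1 of 2 CDCA7 probe sets and 4 of 5 HELLS probe sets, while the DNMT3A probe sets stay between -0.26 and 0.19.

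Promoter windows of all 10 genes were searched for E2F-type motifs, the binding letters of the factors that switch on S phase genes. The letters searched were TTTCCCGC, TTTGGCGC, TTTCGCGC and TTTGCCGC and the shorter GCGGGAA, which overlaps the first of these, on both strands. Windows run from 250 bases before to 50 after each annotated start (RefSeq, GRCh38.p14), and all 10 genes had at least 1. At least 1 of the 4 longer motifs was found in windows of 4 of the 10 genes, UHRF1, HELLS, CDCA7 and DNMT1, against 3.99% of the 27305 genes with windows. The shorter letters were in windows of UHRF1, HELLS, CDCA7 and TET3, against 7.82% of all genes. By window, 5 of the 21 held a longer motif, against 3.31% of all 35116 windows. A match is a description of letters and not a shown binding site. The windows below are those of the 4 genes that shared the array order and of CDCA7L, which did not share it, each written 5′ to 3′ on the strand of the gene with E2F-type letters in capitals.
UHRF1 (chr19:4909251-4909550, plus strand): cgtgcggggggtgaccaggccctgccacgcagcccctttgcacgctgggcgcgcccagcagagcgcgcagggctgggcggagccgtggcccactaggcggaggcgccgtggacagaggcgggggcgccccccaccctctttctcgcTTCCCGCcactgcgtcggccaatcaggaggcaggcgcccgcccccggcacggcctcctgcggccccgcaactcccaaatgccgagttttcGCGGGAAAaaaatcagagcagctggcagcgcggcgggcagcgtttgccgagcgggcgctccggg
HELLS (chr10:94545538-94545837, plus strand): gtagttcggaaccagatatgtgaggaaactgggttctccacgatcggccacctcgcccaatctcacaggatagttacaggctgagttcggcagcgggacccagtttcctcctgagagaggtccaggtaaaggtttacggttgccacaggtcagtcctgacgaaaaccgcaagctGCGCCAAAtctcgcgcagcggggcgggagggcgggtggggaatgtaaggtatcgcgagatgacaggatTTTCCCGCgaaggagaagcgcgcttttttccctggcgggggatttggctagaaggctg
CDCA7 (chr2:173354622-173354921, plus strand): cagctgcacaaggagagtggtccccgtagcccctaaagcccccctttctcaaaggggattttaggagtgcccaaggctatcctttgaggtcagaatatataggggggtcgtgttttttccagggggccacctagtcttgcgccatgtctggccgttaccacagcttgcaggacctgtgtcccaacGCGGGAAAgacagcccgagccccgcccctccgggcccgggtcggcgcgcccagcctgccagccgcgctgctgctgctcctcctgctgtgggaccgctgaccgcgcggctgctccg
DNMT1 (chr19:10194904-10195203, minus strand): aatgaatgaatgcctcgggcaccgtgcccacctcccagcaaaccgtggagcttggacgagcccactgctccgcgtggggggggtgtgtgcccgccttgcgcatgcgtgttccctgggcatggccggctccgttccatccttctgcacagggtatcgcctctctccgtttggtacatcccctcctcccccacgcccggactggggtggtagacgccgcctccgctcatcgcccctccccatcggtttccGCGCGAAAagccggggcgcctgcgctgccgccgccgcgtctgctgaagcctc
CDCA7L (chr7:21945850-21946149, minus strand): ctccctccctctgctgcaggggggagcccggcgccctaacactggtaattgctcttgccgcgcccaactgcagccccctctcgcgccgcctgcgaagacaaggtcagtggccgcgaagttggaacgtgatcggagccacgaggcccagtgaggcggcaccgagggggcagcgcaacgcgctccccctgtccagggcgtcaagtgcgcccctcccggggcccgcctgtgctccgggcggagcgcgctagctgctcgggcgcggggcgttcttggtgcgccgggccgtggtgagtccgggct

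Counted from 0 at the annotated start, the matches in UHRF1 begin at -104 and -14, those in HELLS at -76 and -8, that in CDCA7 at -65 and that in DNMT1 at -2. A second UHRF1 window (chr19:4909894-4910193) held 1 match, beginning at -160, and the third UHRF1 window held 0. The windows of CDCA7L, DNMT3A, DNMT3B, TET1 and TET2 held 0 E2F-type matches, and 1 of the 2 TET3 windows held the shorter letters. A second motif of cell cycle genes, the CHR letters TTTGAA, was in 15.2% of all windows and in 2 of these 21, at DNMT3A and TET2. CpG counts per window ran from 3 at DNMT3B to 46 at the third starts of UHRF1 and DNMT3A, with a median of 26 over the 21 windows against 14 over all windows. The median GC content was 69.7% against 58.7%. The motif shares over all genes and windows were not matched for this, so nothing is read from them.

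**Figure D2:**
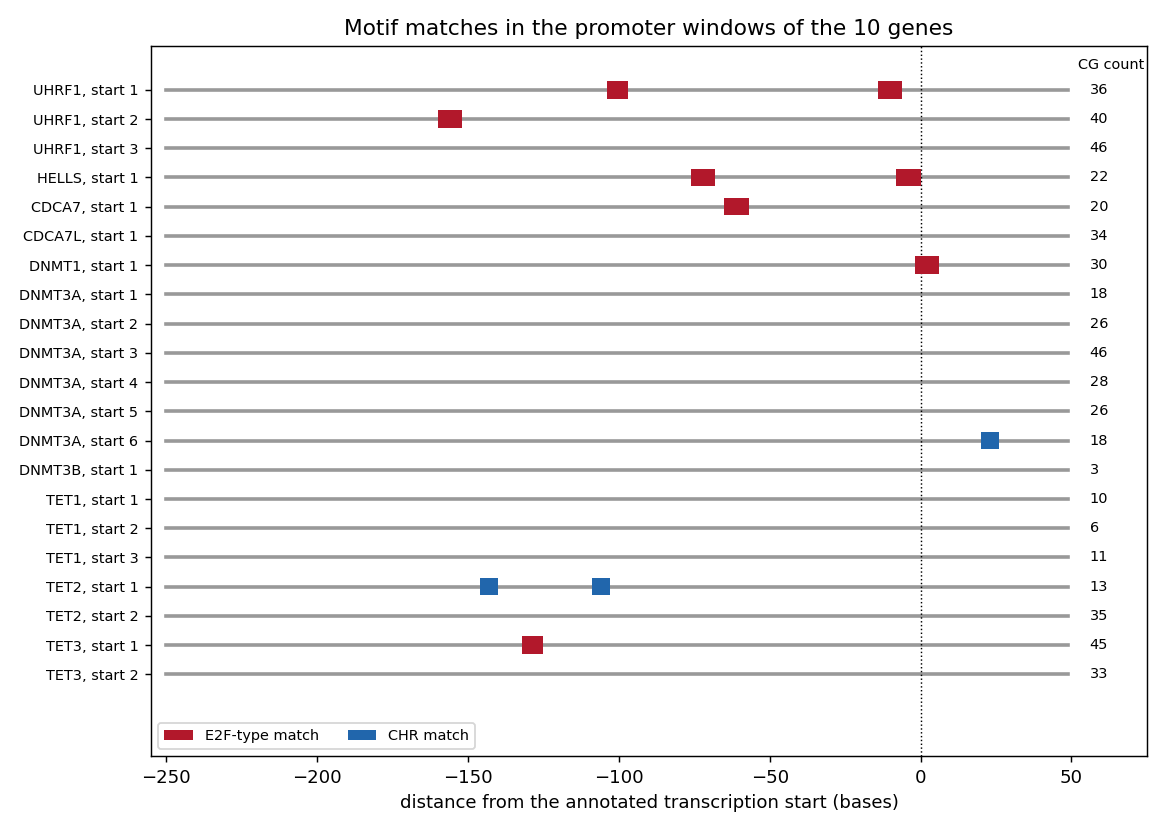
Promoter windows of the 10 genes (21 annotated starts, numbered in the direction of transcription), with distance from the start in bases on the x axis, E2F-type matches in red, CHR matches in blue and the CpG count at the right. E2F-type matches lie in windows of UHRF1, HELLS, CDCA7, DNMT1 and TET3.

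The methyltransferases of unmarked DNA varied less. DNMT3A stayed within 0.12 between its highest and lowest array as a gene mean, at 0.05 in LhTERTL and -0.07 in LhTERTL/cre+, against -0.01 in mock and 0.03 in mock/cre+. Its 3 probe sets spanned at most 0.43 each and did not share an order. DNMT3B, with 1 probe set, stood at 0.12 in LhTERTL and -0.12 in LhTERTL/cre+, against -0.14 in mock and 0.56 in mock/cre+. It was high in mock/cre+ alone, so LhTERTL/cre+ was 0.68 below mock/cre+ while LhTERTL was 0.26 above mock.

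Among the demethylation genes TET1 had the widest range. Its probe set 228906_at stood at 0.03 in LhTERTL and -0.03 in LhTERTL/cre+, against -0.56 in mock and 0.86 in mock/cre+. The other, 214862_x_at, of a kind that can also read other transcripts, stood at 0.07 in LhTERTL and -0.07 in LhTERTL/cre+, against -0.33 in mock and 0.63 in mock/cre+. Both TET1 probe sets placed the 2 long-telomere arrays between the 2 short-telomere arrays, with pair differences of opposite sign (gene mean 0.49 without Cre and -0.79 with Cre).

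TET2 differed mainly in 1 of 3 probe sets, 227624_at, at 0.55 in LhTERTL and -0.26 in LhTERTL/cre+, against 0.09 in mock and -0.09 in mock/cre+. Here both Cre arrays stood below both arrays without Cre, the opposite of UHRF1. TET3 stood at -0.03 in LhTERTL and -0.11 in LhTERTL/cre+, against 0.03 in mock and 0.27 in mock/cre+ (mean of 3 probe sets). It was the only one of the 10 genes with both long-telomere arrays below both short-telomere arrays (10% of the 10, beside 11.7% of all genes), and for 0 of the 10 did they lie above (11.4% of all genes). Its probe sets differed by between -0.35 and -0.03 (long minus short).

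The long-telomere lines were set against the short-telomere lines to ask what follows telomere length. In the pair without Cre, LhTERTL overexpressed hTERT and mock had basal hTERT, so telomere length and hTERT cannot be told apart there. Only the pair with Cre shares basal hTERT. Lower by at least 0.5 log2 (1.41-fold) in both Cre-matched pairs were 2 of the 10 genes, UHRF1 and CDCA7, beside 0.329% of all genes, and 0 were higher in both, beside 0.278%. By probe set these were 4 of 22, namely UHRF1, 224428_s_at of CDCA7 and 220085_at and 227350_at of HELLS, beside 0.346% of all probe sets. The contrast is the one the genes were chosen on, and nothing is read from these shares. Across all 54613 probe sets limma called 0 for this contrast (0% called, two-sided, Benjamini-Hochberg adjusted p under 0.05), and 695 had an unadjusted p under 0.05. That is fewer than this threshold would give on average without any difference, so the 695 are not read as differences.

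In single pairs, 5 of the 10 genes were at least 0.5 lower in LhTERTL than in mock (UHRF1, HELLS, CDCA7, CDCA7L and DNMT1), beside 5.55% of all genes. In LhTERTL/cre+ against mock/cre+ 4 were at least 0.5 lower (UHRF1, CDCA7, DNMT3B and TET1), beside 4.85%, and in either pair 0 were higher by that much, beside 7.18% without Cre and 2.95% with Cre. The pairs thus shared UHRF1 and CDCA7, while CDCA7L and DNMT1 passed that size without Cre and DNMT3B and TET1 with it. HELLS passed it without Cre and stood at -0.42 with Cre.

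**Figure D3:**
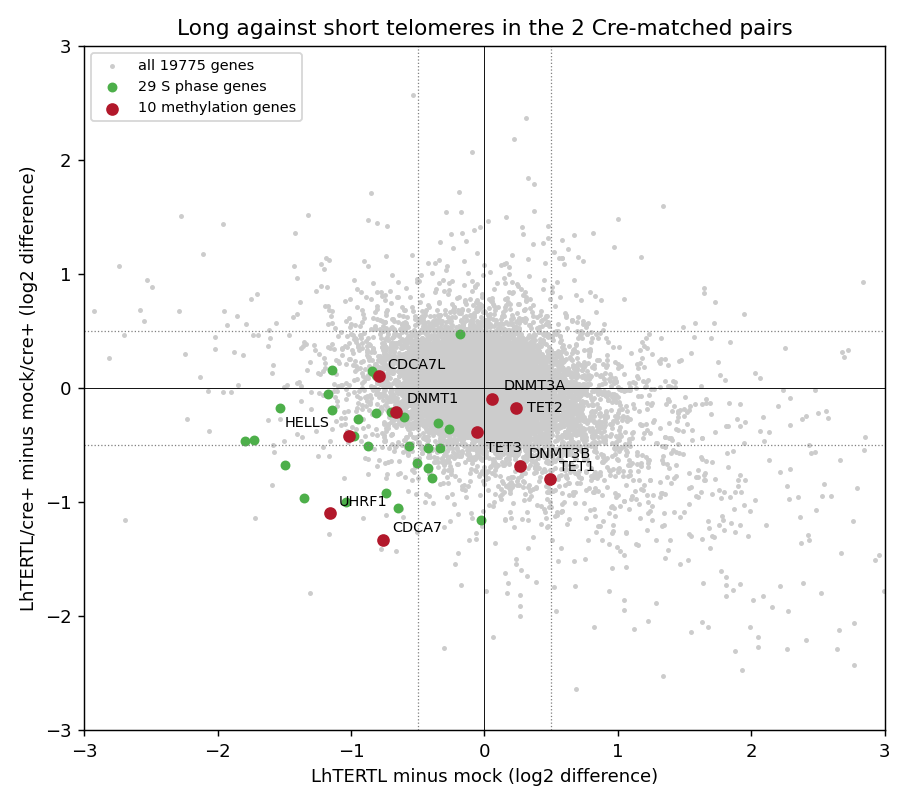
Gene-level log2 differences between long-telomere and short-telomere lines, without Cre on the x axis (LhTERTL minus mock) and with Cre on the y axis (LhTERTL/cre+ minus mock/cre+), for all 19775 genes in grey, 29 S phase genes in green and the 10 methylation genes in red; dotted lines mark 0.5 log2, and 36 genes lie outside the axes. UHRF1 and CDCA7 lie beyond both lines at the lower left, and TET1 and DNMT3B lie at the lower right. The lines on the x axis differ in hTERT as well as in telomere length.

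The study deposited a list of lower probe sets, which holds 0.236% of all and 3 of the 22, and a list of higher ones, which holds 0.227% of all and 0 of the 22. The 3 are UHRF1 225655_at, HELLS 227350_at and CDCA7 224428_s_at. Every probe set of the lower list was at least 1.4-fold lower in both pairs, as were 207 of all probe sets, among them HELLS 220085_at, which is not in the list. The list was selected on these same arrays by a rule not stated in the labels or files, so it is no independent evidence. Under its headings LhTERTL and mock/cre+ it holds each other's values of the deposited series table for every probe set, and taken by its own headings UHRF1 would be at 1.46 in LhTERTL and -1.53 in mock/cre+. The list of higher probe sets holds the series values under the same headings for every probe set, so only the lower list differs. By the lower list's headings UHRF1 would be higher with long telomeres in both pairs. It would stand at 1.46 in LhTERTL against -0.37 in mock, and at 0.37 in LhTERTL/cre+ against -1.53 in mock/cre+. That is the reverse of the list's direction, so the exchanged headings appear to be those of the lower list. The series table is used throughout, in which 1 TERT probe set is highest in LhTERTL and the other is lowest there.

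The lines with Cre were then set against those without. The rule for the genes does not name this split, but it was read on the same 4 arrays, with earlier results of them known when the genes were chosen. Both cre+ arrays stood above both arrays without Cre for 5 of the 10 genes (UHRF1, HELLS, CDCA7, CDCA7L and DNMT1), beside 17.4% of all genes, and below them for 0, beside 20.1%. UHRF1 was 1.89 higher in LhTERTL/cre+ than in LhTERTL, lines that also differ in hTERT. It was 1.83 higher in mock/cre+ than in mock, which both have basal hTERT. The parts of Cre and hTERT in these steps were not tested. CDCA7 was 1.29 and 1.86 higher and HELLS 1.64 and 1.05 higher in these pairs. These 3 genes were the members at least 0.5 higher in both, beside 1.71% of all genes, and 0 were lower in both, beside 0.88%.

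DNMT1 was 0.89 higher in LhTERTL/cre+ than in LhTERTL and 0.44 higher in mock/cre+ than in mock. CDCA7L was 0.90 higher in LhTERTL/cre+ than in LhTERTL but 0.00 apart between mock/cre+ and mock. TET1 and DNMT3B did the reverse, at 1.19 and 0.70 higher in mock/cre+ than in mock, and at -0.10 and -0.24 in LhTERTL/cre+ minus LhTERTL. DNMT3A, TET2 and TET3 stayed under 0.5 in both Cre comparisons. Counted singly, 5 of the 10 genes were at least 0.5 higher in LhTERTL/cre+ than in LhTERTL, beside 6.8% of all genes, and 0 were lower, beside 7.28%. In mock/cre+ against mock 5 were higher, beside 7.7%, and 0 lower, beside 4.93%. UHRF1, HELLS and CDCA7 are in both counts, joined by CDCA7L and DNMT1 in the long-telomere lines and by DNMT3B and TET1 in the short-telomere lines.

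In the limma fit of the Cre split over all genes, none of the 19775 passed (0% called, smallest adjusted p = 0.772, two-sided, Benjamini-Hochberg), with 1243 at an unadjusted p under 0.05. UHRF1 differed by 1.86 ± 0.55 (Cre minus no Cre, limma standard error, n = 2 per group; limma adjusted p = 0.772), CDCA7 by 1.57 ± 0.53 and HELLS by 1.35 ± 0.38, with the same adjusted p. DNMT1 differed by 0.67 ± 0.26, TET1 by 0.55 ± 0.33 and CDCA7L by 0.45 ± 0.29. Without the LhTERTL array HELLS was at 0.84, DNMT1 at 0.34 and CDCA7L at 0.06, and without mock/cre+ CDCA7 was at 0.91 and TET1 at 0.15. Without mock TET1 was at 0.30 and CDCA7L at 0.85, and without LhTERTL/cre+ TET1 was at 0.95. DNMT3B (0.23 ± 0.27), TET3 (0.08 ± 0.17) and DNMT3A (-0.04 ± 0.11) differed by less than their errors, and TET2 by -0.20 ± 0.14. The errors of this fit include the difference between long-telomere and short-telomere arrays of the same Cre status. At an unadjusted p under 0.05 (limma), 3 of the 10 genes were higher with Cre, UHRF1, HELLS and CDCA7, beside 3.73% of all genes, and 0 were lower, beside 2.55%. Given how the genes were chosen, nothing is read from this share.

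**Figure D4:**
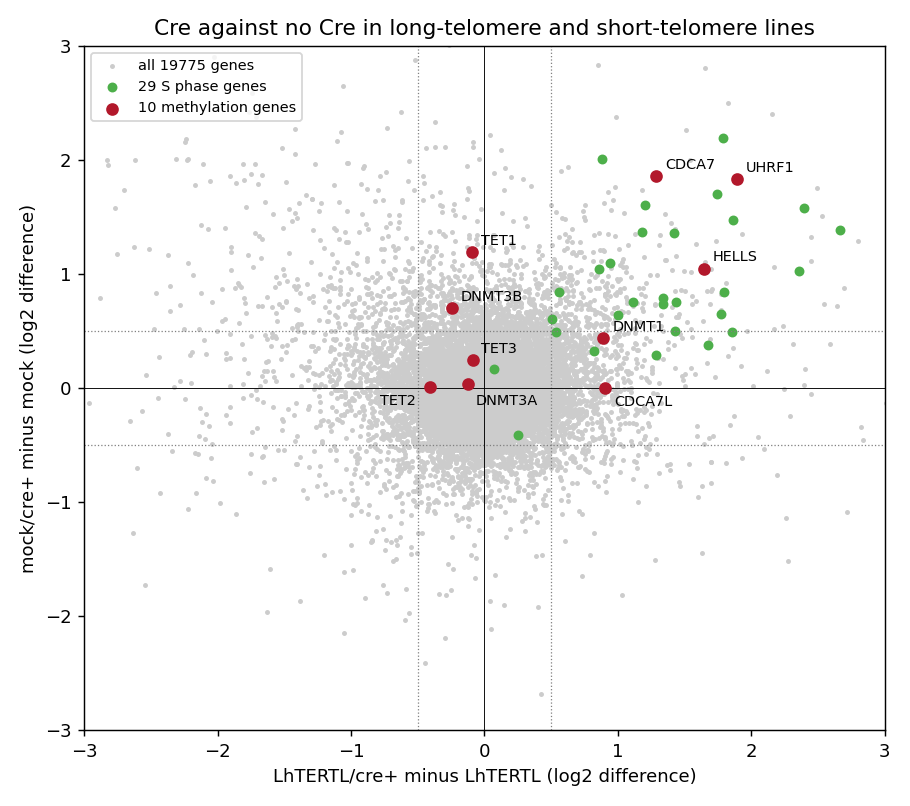
Gene-level log2 differences between cre+ lines and lines without Cre, in long-telomere cells on the x axis (LhTERTL/cre+ minus LhTERTL) and in short-telomere cells on the y axis (mock/cre+ minus mock), for all 19775 genes in grey, 29 S phase genes in green and the 10 methylation genes in red; dotted lines mark 0.5 log2, and 50 genes lie outside the axes. UHRF1, CDCA7 and HELLS lie at the upper right among the S phase genes, CDCA7L on the right at 0 on the y axis, and TET1 and DNMT3B above 0.5 on the y axis only.

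The long-telomere line with basal hTERT was also set against the control line without Cre. On the log2 scale UHRF1 was 0.73, HELLS 0.63 and CDCA7 0.53 higher in LhTERTL/cre+ than in mock, which makes 3 of 10 genes at least 0.5 higher, beside 2.55% of all genes, and 0 lower, beside 1.4%. LhTERTL/cre+ differs from mock in Cre status as well as in telomere length, and these cannot be told apart in this contrast. Against mock/cre+, which shares its Cre status, all 3 genes were lower in LhTERTL/cre+. UHRF1 was 1.83 higher in mock/cre+ than in mock. TET1 was 0.40 higher and DNMT1 0.23 higher in LhTERTL/cre+ than in mock, and the other 5 genes lay between -0.17 and 0.11.

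The full order from low to high, LhTERTL, mock, LhTERTL/cre+ and mock/cre+, was found in 4 of the 10 genes (UHRF1, HELLS, CDCA7 and DNMT1), beside 7.24% of all genes, and in 7 of the 22 probe sets, beside 6.31% of all probe sets. Being lower in both telomere pairs is part of this order, so the members' shares are not independent of the choice. The same order was found in 24 of 29 measured S phase genes (82.8%) and 18 of 24 measured G2/M genes (75%). The S phase list, of genes of origin licensing, nucleotide supply and the replication fork, averaged -1.05 in LhTERTL and 0.26 in LhTERTL/cre+, against -0.23 in mock and 0.69 in mock/cre+. The 5 maintenance genes averaged -1.09 in LhTERTL and 0.23 in LhTERTL/cre+, against -0.22 in mock and 0.82 in mock/cre+, close to the S phase means on every array. This holds for the means only. In mock/cre+ the single genes stood at 0.00 (CDCA7L), 0.33 (DNMT1), 0.77 (HELLS), 1.46 (UHRF1) and 1.54 (CDCA7). The 11 measured housekeeping genes averaged -0.14 in LhTERTL and 0.07 in LhTERTL/cre+, against -0.05 in mock and 0.08 in mock/cre+, and 4 of them stood in that order (36.4%), with SDHA, PGK1 and HPRT1 spanning most, at 0.92, 0.85 and 0.74. The part of the S phase and housekeeping shifts in the values of UHRF1, HELLS, CDCA7 and DNMT1 was not tested. In RNA from a whole culture, fewer cells in a cell cycle phase and less RNA per cell cannot be told apart.

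The ranges of single S phase genes ran from 0.43 for CCNE1 and 0.48 for CDC6 to 3.12 for POLE2. Those named next were picked as the widest. POLE2, a subunit of the leading-strand polymerase, stood at -2.20 in LhTERTL and 0.47 in LhTERTL/cre+, against -0.47 in mock and 0.92 in mock/cre+. The replication initiation factor MCM10 and cyclin E2 (CCNE2) were the other 2 of widest range, with Cre minus no Cre differences of 1.99 each. MKI67, the common proliferation marker, stood at -0.39 in LhTERTL and 0.19 in LhTERTL/cre+, against -0.22 in mock and 0.76 in mock/cre+. It is counted among the G2/M genes and spanned 1.15. By median the S phase list was -0.59 (long minus short) and 1.06 (Cre minus no Cre), beside -0.01 and -0.02 over all genes. Of its 29 genes 22 were at least 0.5 higher in both Cre comparisons (75.9%) and 8 at least 0.5 lower in both telomere pairs (27.6%). G2/M genes spread over a narrower range, with medians of -0.37 and 0.52, and KIF20A, a mitotic kinesin, at -0.66 in LhTERTL and 0.24 in LhTERTL/cre+, against -0.24 in mock and 0.96 in mock/cre+. The mitotic kinase CDK1 differed by 1.05 and cyclin A2 (CCNA2) by 0.72 (Cre minus no Cre).

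The genes most like UHRF1 were sought over all 19775 by the root mean square distance between centred values over the 4 arrays. The 5 nearest outside the set were DTL, the substrate receptor of a ubiquitin ligase active in S phase, at 0.09, the repressor E2F8 at 0.13, MCM10 at 0.19, CCNE2 at 0.20 and ZNF367 at 0.22. DTL stood at -1.39 in LhTERTL and 0.35 in LhTERTL/cre+, against -0.35 in mock and 1.35 in mock/cre+. CDCA7 was the nearest of the other 9 genes at 0.22, and HELLS followed at 0.36. DNMT1 lay at 0.70, CDCA7L at 0.83 and TET1 at 0.89, and TET2 was the farthest at 1.19. With 4 arrays this distance is a description of 4 values.

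Partners of the maintenance machinery were also measured, and PCNA, which is also a usual proliferation marker, is counted here and not among the 29 S phase genes. The sliding clamp PCNA stood at -0.73 in LhTERTL and 0.45 in LhTERTL/cre+, against -0.45 in mock and 1.29 in mock/cre+. PCLAF, a clamp-bound protein that UHRF1 ubiquitinates, and LIG1, the ligase of the replication fork, were 1.06 and 0.95 higher with Cre than without. They are the 3 of widest range among the 14 measured partners, of which 3 were at least 0.5 higher in both Cre comparisons (21.4%) and 1 at least 0.5 lower in both telomere pairs (7.14%). The list median was -0.13 (long minus short) and 0.17 (Cre minus no Cre).

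Readers of methylated DNA spanned at most 0.42 over the arrays as gene means. Of 7 measured, 0 passed 0.5 in both pairs of either split, with medians of -0.08 (long minus short) and -0.10 (Cre minus no Cre). Over all genes 0.329% (lower) and 0.278% (higher) passed it in both telomere pairs, and 1.71% (higher) and 0.88% (lower) in both Cre comparisons. Both cre+ arrays lay below both others for 3 (42.9%, beside 20.1% of all genes) and above for 0 (beside 17.4%). Both long-telomere arrays lay below both short-telomere arrays for 2 (28.6%, beside 11.7%) and above for 0 (beside 11.4%). MBD1 stood at 0.28 in LhTERTL and 0.00 in LhTERTL/cre+, against 0.01 in mock and -0.14 in mock/cre+. MBD3, of a nucleosome-remodelling and deacetylase complex, differed by -0.15 and ZBTB33 (Kaiso) by -0.20 (long minus short).

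Of 14 measured genes of oxidised-base removal and related repair, 1 was at least 0.5 higher in both Cre comparisons, the DNA glycosylase NEIL3, at -1.12 in LhTERTL and 0.16 in LhTERTL/cre+, against -0.16 in mock and 0.57 in mock/cre+. The cytidine deaminase APOBEC3B was high in mock/cre+ alone, at 1.12, with 0.01 in LhTERTL, -0.01 in LhTERTL/cre+ and -0.45 in mock. GADD45A, a stress-induced gene linked to DNA repair, was low in mock/cre+ alone, at -0.82. The list medians were -0.12 (long minus short) and 0.11 (Cre minus no Cre).

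Among 13 measured genes of methyl donor supply and TET cofactors, 0 passed 0.5 in both pairs of either split, with medians of -0.01 (long minus short) and 0.20 (Cre minus no Cre). The shares over all genes are those given above for the readers, so nothing is read from the 0. IDH1, which makes the alpha-ketoglutarate that TET enzymes use, had the widest range, at 1.57 in LhTERTL and -0.34 in LhTERTL/cre+, against 0.07 in mock and -0.09 in mock/cre+. The folate enzyme SHMT2 was low in mock/cre+ alone at -0.68. The 2 probe sets of MTHFD1, another folate enzyme, disagreed, at -0.16 and 0.72 (long minus short).

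**Figure D5:**
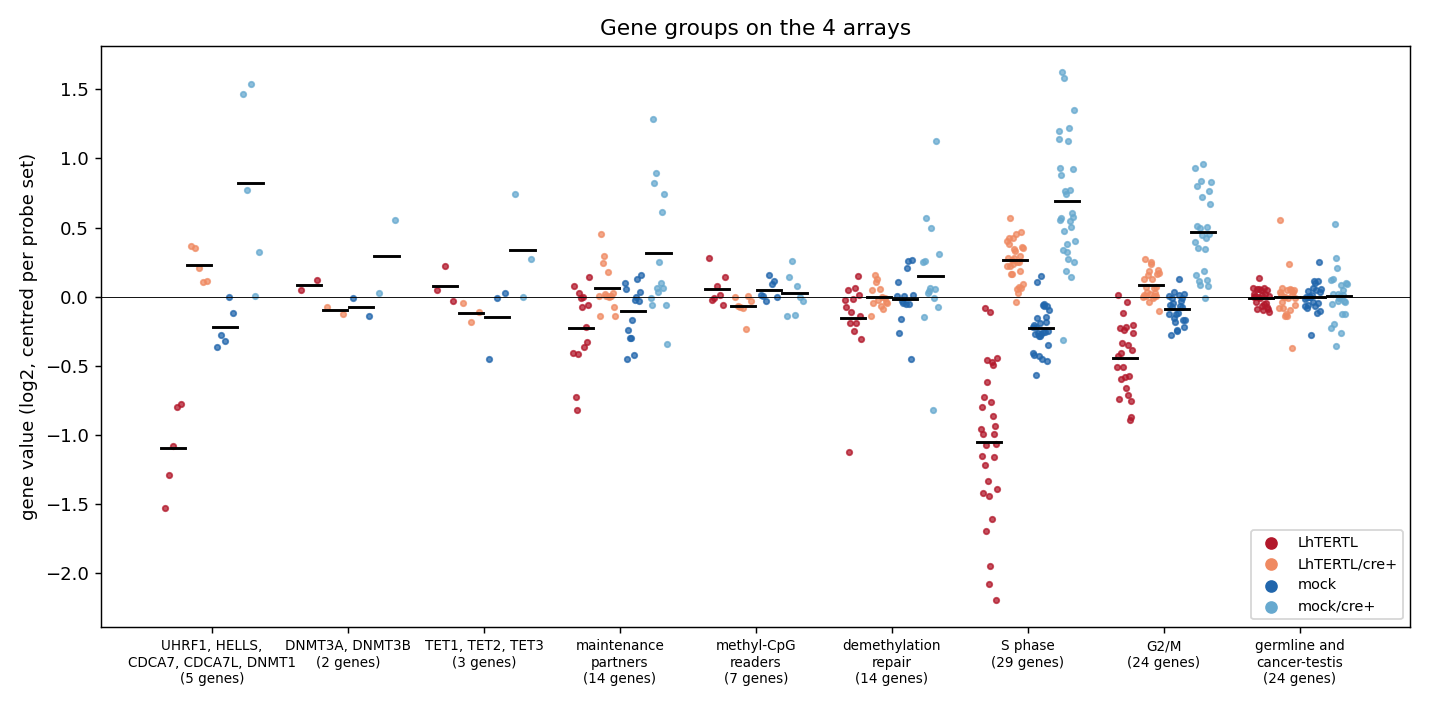
Gene-level log2 values, centred per probe set, of the 10 genes by role and of 6 further gene lists on the 4 arrays, with 1 point per gene and bars at the mean of each group. The maintenance genes and the S phase genes have nearly the same means on each array, with single genes spread widely around them, while the germline list stays at 0 on average.

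Genes that are often silenced by promoter methylation were read beside these. Of 24 measured germline and cancer-testis genes 0 passed 0.5 in both telomere pairs or both Cre comparisons, with medians of -0.01 (long minus short) and 0.01 (Cre minus no Cre). Over all genes these shares were 0.329% (lower) and 0.278% (higher), and 1.71% (higher) and 0.88% (lower), so nothing is read from the 0. Centred values give no expression level, so whether these genes were expressed at all is not known. Both long-telomere arrays lay below both short-telomere arrays for 6 (25%, beside 11.7% of all genes) and above for 4 (16.7%, beside 11.4%). MAEL, of the germline small RNA pathway, had the widest range, at 0.02 in LhTERTL and 0.56 in LhTERTL/cre+, against -0.02 in mock and -0.22 in mock/cre+. TEX15 stood highest in mock/cre+ at 0.52, and MAGEA10 stayed between -0.26 and 0.24.

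Of 17 measured genes reported as methylated in prostate cancer, 1 was at least 0.5 higher in both Cre comparisons and 0 passed 0.5 in both telomere pairs, with medians of -0.04 (long minus short) and -0.04 (Cre minus no Cre). The 1 gene was MGMT, a DNA repair enzyme, named here after its values were seen, with a Cre minus no Cre difference of 0.81. TIMP3, a metalloproteinase inhibitor, ran 0.92 in LhTERTL and -1.03 in LhTERTL/cre+, against -0.72 in mock and 0.68 in mock/cre+, so its pairs went opposite ways. PTGS2, the inducible cyclooxygenase, and the calcium-binding S100A2 were highest in LhTERTL and spanned 1.58 and 1.22 over the arrays. DNA methylation itself was not measured in these samples.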

How the data were processed

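RNA of 4 PC-3 derivative lines was hybridised to Affymetrix arrays, 1 array per line. Values on the log2 scale, as deposited by the authors, came from RMA, per the submitters' processing notes, which name no software version. The median of each of the 54675 probe sets over the 4 arrays was 0 within 1e-05, so rows had been centred, and no filter on dim probe sets or other background correction could be made. Array medians lay between -0.01 and 0.011. The standard deviation over probe sets was 0.335 in LhTERTL and 0.179 in LhTERTL/cre+, against 0.209 in mock and 0.254 in mock/cre+. The arrays at the ends of the UHRF1 order, LhTERTL and mock/cre+, thus had the widest spread over all probe sets. After 62 control probe sets were left out, 54613 were tested with limma 3.58.1 (R 4.3.3; lmFit and eBayes), tested on simulated data first, with Benjamini-Hochberg adjustment. Groups came from the labels' telomere status, and Cre status from the line names.

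Probe sets with 1 symbol in the platform annotation (41091; 1801 had several and 11721 none) were averaged to 19775 genes, and 41037 matched RefSeq by Entrez number. Python 3.11.15, numpy 2.4.6, pandas 2.3.3 and matplotlib 3.10.9 were used for the rest. Genes named from the lists were the 3 measured genes of widest range over the arrays in each list, with PCNA and MKI67 named in addition, and the 5 genes nearest to UHRF1. The members and lists were chosen with earlier results of these data known. Alternatives were another fold threshold, probe set summary, centring, variance trend, covariate and each array left out. From the deposited lists the probe set names were used, and their values were only compared with the series table. Protein sequences were not used here.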

Additional observations from a re-analysis of the deposited data

Results flagged for a closer look

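TET1 and DNMT3B went opposite ways in the Cre-matched pairs, each pair by more than 0.25 log2. TET1 was 0.49 higher in LhTERTL than in mock, while LhTERTL/cre+ minus mock/cre+ was -0.79. DNMT3B was 0.26 higher in LhTERTL than in mock, while LhTERTL/cre+ minus mock/cre+ was -0.68. With 1 array per line the difference between pairs was not tested, and the lines of the pair without Cre also differ in hTERT. In both genes mock/cre+ was the highest of the 4 arrays, at 0.75 for TET1 and 0.56 for DNMT3B.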

How the results depend on the processing

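For long minus short telomeres limma called 0 of 54613 probe sets under the main setting (695 at an unadjusted p under 0.05) and 1 with arrays centred on the mean of 11 housekeeping genes (adjusted p = 0.0409, limma), which lowers every Cre minus no Cre difference by 0.17. The count was 0 with each array left out, with a variance trend, with Cre as a covariate, with median centring and at gene level, where the smallest adjusted p (limma) ran from 0.301 to 1. For Cre minus no Cre the count was 0 under every one of these settings, with between 1121 and 7034 probe sets at an unadjusted p under 0.05. Of the 10 genes, 2 were lower in both Cre-matched pairs at 0.5 log2, 1 at 1.0 log2 (UHRF1) and 3 at 0.3 log2 (UHRF1, HELLS and CDCA7). Reading each gene by its most variable probe set also gave 3.

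The long minus short difference of HELLS turned to 0.11 without long-telomere replicate 1 (LhTERTL), within a range of -1.54 to 0.11 over the arrays left out in turn. The same ranges were -2.08 to -0.18 for UHRF1, -1.97 to -0.11 for CDCA7, -0.80 to 0.11 for CDCA7L and -0.88 to 0.01 for DNMT1. For the Cre split they were 1.28 to 2.44 for UHRF1, 0.84 to 1.85 for HELLS and 0.91 to 2.24 for CDCA7. For Cre minus no Cre they were 0.336 to 0.997 for DNMT1, 0.15 to 0.95 for TET1 and 0.06 to 0.85 for CDCA7L. With an array left out, the telomere groups are unmatched for Cre status and the Cre groups for telomere status. Each split thus enters the values of the other, and these ranges do not measure the spread between the Cre-matched pairs. Of 160 values of the 10 genes under alternatives, 14 had the opposite sign to the value reported, for 1 or more settings in HELLS, CDCA7L, DNMT1, DNMT3A, DNMT3B, TET1, TET2 and TET3, and in 0 settings for UHRF1 and CDCA7. The labels give no replicate numbers to use as a block. The lines can be matched by Cre status, and the fit with Cre as a covariate called 0 for long minus short telomeres, with 1038 probe sets at an unadjusted p under 0.05. Centred values of 4 arrays hold no signal over background, so dim probe sets cannot be set apart. The causes of these shifts were not tested.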
